A study of Mus musculus with 2 samples.

Results

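Cells with a high score for G1/S and S-phase genes, from a passage 5 (PC5) culture of primary mouse brain pericytes (PCs), were examined. They were 10% of the 9950 PC5 cells that passed the cell filter. They were chosen by a score computed on the same counts. The score of a cell was the summed UMIs (unique molecular identifiers, 1 per captured transcript) of *Mcm2*, *Mcm3*, *Mcm4*, *Mcm5*, *Mcm6*, *Pcna*, *Dtl*, *Pclaf* and *Rad51ap1* divided by all UMIs of the cell. The top 10% by this score were taken, and are called high-score PC5 cells rather than cells of a phase, because genes of G2/M were higher in them as well. The other 8955 kept PC5 cells were the contrast.

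PCs are mural cells of brain capillaries. The study cultured them from brains of wild type C57BL/6N female mice, 6 animals aged 6 to 8 weeks per isolation, and sequenced 1 droplet library at passage 5 (PC5) and 1 at passage 20 (PC20). No transgene or treatment separates the libraries, and the animals of an isolation were pooled. By the study's methods the passages came from different isolations, while the sample labels describe 1, so that passage and isolation cannot be told apart wherever PC20 values stand beside PC5 values. The kept cells of both libraries together numbered 14699, of which 4749 were PC20 cells.

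A cell that leaves G1 releases the E2F transcription factors from the retinoblastoma family, and E2F switches on cyclin E and the replication genes. Origins are licensed in G1, when ORC, CDC6 and CDT1 load the MCM helicase ring, and they fire in S phase, when CDC45 and GINS join the ring. PCNA is the sliding clamp that holds polymerases on the DNA, and PCLAF and the ubiquitin ligase adaptor DTL act on it, the latter in the destruction of CDT1 during S phase.

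E2F-type letter strings were looked for, because E2F binds such letters and many replication genes carry them. TTTCCCGC, TTTGGCGC, TTTCGCGC or TTTGCCGC was searched on both strands of RefSeq promoter windows of build GRCm38.p6, 250 bases before to 50 after each start. TTTCGCGC and the reverse complement of TTTGGCGC overlap where both occur in TTTCGCGCCAAA. Of the 27025 genes with a window, 2.61% held at least 1 string, and of the 8236 genes counted in PC5 with a window, 4.87% did. Among the 54 replication genes with a window, 16 did (29.6%), with 6 of 10 in licensing, 2 of 9 in initiation, 8 of 25 at the fork and 0 of 10 in deoxynucleotide supply. Among the 16 genes of G1/S control 7 did (43.8%), and among the 37 genes of the G2/M list 1 (2.7%). The share was 13% of the 818 genes with a window that were at least 1.5-fold higher in high-score PC5 cells, and 1.21% of the 248 that were at least 1.5-fold lower. These are matches of letters, and binding was not measured. The stretches below lie before the start of 5 score or named genes, 5′ to 3′ on the gene's strand, with the matched letters in capitals, and were the ones in which no annotated exon lies.
*Mcm5*, chr8:75109324-75109403, plus strand: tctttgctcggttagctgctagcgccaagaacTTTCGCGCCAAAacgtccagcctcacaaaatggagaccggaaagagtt
*Mcm6*, chr1:128359709-128359788, minus strand: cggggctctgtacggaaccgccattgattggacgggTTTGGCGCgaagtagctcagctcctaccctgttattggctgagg
*Dtl*, chr1:191575545-191575624, minus strand: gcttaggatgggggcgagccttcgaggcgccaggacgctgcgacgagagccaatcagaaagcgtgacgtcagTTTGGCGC
*E2f7*, chr10:110745205-110745284, plus strand: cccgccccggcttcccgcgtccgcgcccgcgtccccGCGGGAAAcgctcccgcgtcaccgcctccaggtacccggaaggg
*Cdc6*, chr11:98908002-98908031, plus strand: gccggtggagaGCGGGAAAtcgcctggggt

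High-score PC5 cells held more RNA than the contrast. Their median was 26350 UMIs (middle 50% of cells 20668 to 32216.5) and 5180 genes per cell, against 21100 UMIs (15270.5 to 28147.5) and 4378 genes. In PC20, where the same rule picked 474 cells, the medians were 33191.5 and 33488 UMIs. Mitochondrial genes took a median of 2.84% of UMIs in high-score PC5 cells and 2.57% in the contrast, and ribosomal protein genes 30.2% and 33.3%. The counts were repeated with the range of depth limited, and with depth made equal by thinning. Among cells in the middle 50% of UMIs, 1142 of 10425 genes were at least 1.5-fold higher in the newly picked cells and 379 lower. The counts given below are 1028 and 321 of 10429. With cells thinned to 9500 UMIs, which left out 82 high-score and 848 contrast cells, 765 of the 8949 genes then counted were higher and 251 lower.

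The score had no gap at the threshold. The last cell inside it had a score of 559 CPM (UMIs per 1000000 UMIs) and the first outside 558 CPM, the highest cell reached 2531 CPM, and 2694 cells (27.1%) had no score UMI. Within 10% of the threshold lay 140 high-score cells and 195 contrast cells. A cell could enter on few molecules: the high-score cells held between 2 and 59 score UMIs (median 22), and the last one inside held 5. The 2 libraries shared 20 cell barcodes, 5 of them in high-score PC5 cells. Without them, and with the top 10% picked anew, 1040 genes were at least 1.5-fold higher and 325 lower.

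**Figure D1:**
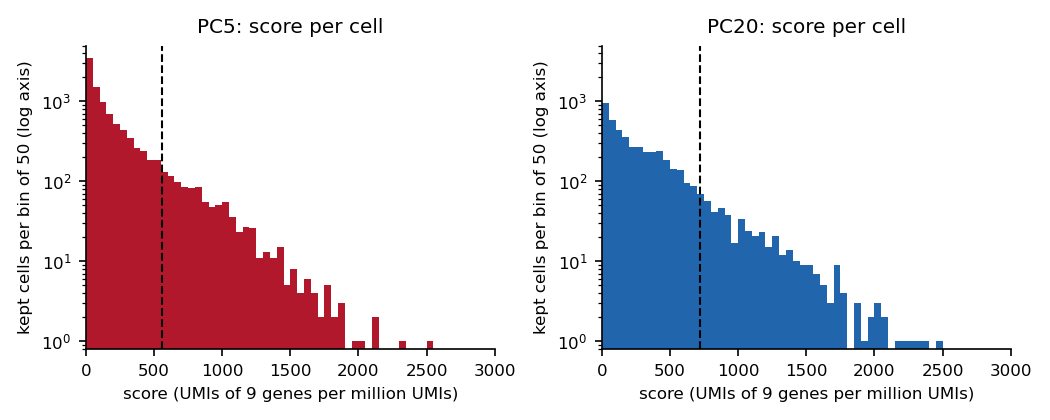
Kept cells per bin of 50 score units (CPM of the 9 score genes, vertical log axis) in PC5 and PC20, with the top 10% to the right of the dashed line. In PC5 the line sits at 559 and in PC20 at 719, and neither distribution has a gap there.

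The 9 score genes, which the rule used and which are therefore a description only, did not weigh equally. Levels are CPM of the UMIs summed over a group's cells, and the log2 ratio is that of high-score cells over the contrast. *Pclaf* supplied 46.2% of the score UMIs of high-score PC5 cells, at 396 CPM against 51.3 CPM. The 5 helicase subunits ranged from *Mcm6* with 104 against 21.8 CPM to *Mcm5* with 42.1 against 6.73 CPM, and *Pcna* was at 46.4 against 10.4 CPM. *Rad51ap1*, a DNA repair gene, had the highest log2 ratio, 3.34, and *Pcna* the lowest, 2.16. When cells were picked by the other 8 genes, the log2 ratio of the gene left out was still between 1.96 (*Mcm2*) and 3.13 (*Rad51ap1*), and that of *Pclaf* was 2.07. The top 10% by the 5 Mcm genes alone and the top 10% by the other 4 genes alone shared 469 cells (47.1% of each).

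Of the 10429 genes with a UMI in at least 5% of kept PC5 cells, score genes left out, 1028 were at least 1.5-fold higher in high-score cells (9.86%) and 321 at least 1.5-fold lower (3.08%). The median gene had a log2 ratio of 0.12. Of the 10429 genes, 70 passed the 5% limit only through the high-score cells, and of the 10359 others 981 were higher (9.47%). With ratios centred on that gene the counts were 749 higher and 506 lower, so that the higher share of these genes was 59.7% in place of 76.2%. All are counts by size, since 1 library gives no replicate of a passage and cells of a library are not replicates. The 95% intervals are exact binomial intervals for the log2 ratio and cover counting error only.

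The highest genes outside the score, at a limit of 20 CPM, included regulators of entry into S phase and histones. *Mybl2* (chr2:163054687-163084688, plus strand, GENCODE M21 on GRCm38, as for the positions that follow), a transcription factor of the E2F programme, was at 20.2 CPM in high-score cells and 1.49 CPM in the contrast, a log2 ratio of 3.76 (95% interval 3.56 to 3.98). *E2f7* (chr10:110745439-110787384, plus strand), an E2F that represses the others, was at 27.8 against 2.39 CPM (3.54, 3.37 to 3.71). Both passed the detection limit of 5% only through the high-score cells, with a UMI in 2.9% and 4.48% of contrast cells, so their place at the head of the list is in part set by that limit. *Ccne2* (chr4:11191351-11204779, plus strand), cyclin E2, which drives CDK2 at the start of S phase, was at 49.1 against 4.6 CPM (3.42, 3.29 to 3.54). At least 1 *Ccne2* UMI was seen in 51.7% of high-score cells and in 7.1% of the contrast, and in 34.3% and 3.71% after thinning. *Fbxo5*, which holds back the anaphase-promoting complex through S phase, was at 43.9 against 4.33 CPM (3.34). The rest of the 15 highest genes at 20 CPM or more were the histones *Hist1h1b*, *Hist1h2ae*, *Hist2h2ac* and *Hist1h2ap*, the cohesin acetylase *Esco2*, the helicase *Brip1*, the ATPase *Fignl1*, the checkpoint mediator *Clspn*, the condensin subunit *Ncapg2*, the licensing factor *Cdc6* and *Slfn9*. Their log2 ratios ran from 2.65 to 3.51.

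In PC20 cells picked by the same rule, 14 of those 15 genes were also at least 1.5-fold higher than in the other PC20 cells, where 6.7% of 10808 genes were. *Cdc6* had log2 ratios of 2.66 in PC5 and 2.70 in PC20, at 20.1 against 3.19 CPM and 26.9 against 4.15 CPM. *Ccne2* had 2.66 in PC20, at 15.4 against 2.44 CPM. *Fbxo5* was the exception, at 43.8 against 33.8 CPM in PC20 (0.38, 0.26 to 0.48). Of the 984 genes that were higher in PC5 and counted in PC20, 422 (42.9%) were also higher there, which is 72.4% of the 583 higher in PC20 and counted in PC5, and 19 were at least 1.5-fold lower there.

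**Figure D2:**
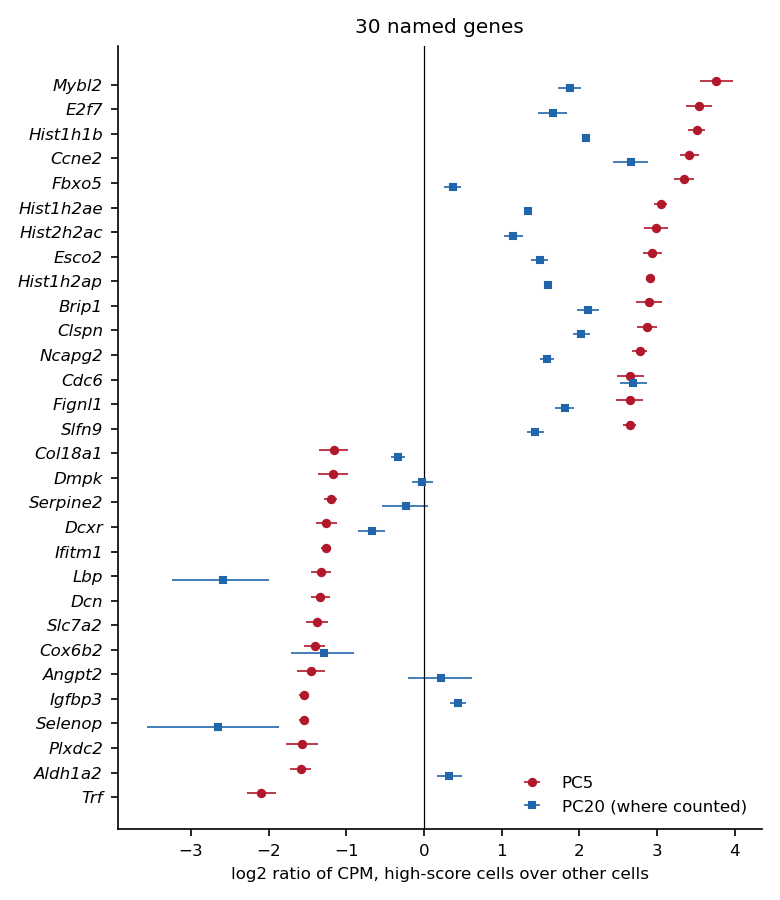
Log2 ratio of CPM, high-score cells over other cells, for the 15 highest and 15 lowest genes in PC5 (red circles) and the same genes in PC20 where at least 5% of cells had a UMI (blue squares), with 95% counting intervals. *Mybl2* leads in PC5 at 3.76 and *Trf* is lowest at -2.09, and *Igfbp3* and *Aldh1a2* lie on opposite sides of 0 in the 2 libraries.

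The replication machinery was higher almost throughout. Of 66 genes of origin licensing, initiation, the fork and deoxynucleotide supply, 56 had a UMI in at least 5% of cells, 49 of these were at least 1.5-fold higher and 1 was lower, beside 9.86% and 3.08% of all genes counted, and their median log2 ratio was 1.47 beside 0.12. Over the 54 genes that passed the limit in the contrast cells alone, 47 were higher. With the top 10% picked anew in thinned cells, 36 of the 44 genes then counted were higher, beside 765 of all 8949. With it picked anew in the middle 50% of UMIs, 49 of 55 were, beside 1142 of all 10425. In licensing, 8 of 10 genes passed 1.5-fold. *Cdt1*, which loads the MCM ring, was at 14.3 against 3.59 CPM (2.00), its inhibitor *Gmnn* at 54.2 against 10.7 CPM (2.34), and *Orc6* at 76.6 against 26.2 CPM (1.55). In initiation, 8 of 8 did, led by *Mcm10*, at 20 against 2.73 CPM (2.87), and including the kinase *Cdc7* (1.98) and its activator *Dbf4* (1.31).

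At the fork, 22 of 27 genes were at least 1.5-fold higher, again beside 9.86% of all genes counted. Of the 26 that passed the detection limit in the contrast cells alone, 21 were higher, beside 9.47% of all such genes. The flap nuclease *Fen1* was at 32.0 against 6.16 CPM (2.38), the ligase *Lig1* at 47.3 against 11.4 CPM (2.05), and the catalytic subunit of polymerase epsilon, *Pole*, at 18 against 4.09 CPM (2.13). *Pold4*, the smallest subunit of polymerase delta, was the 1 gene of the list that was lower, at 25.4 against 48.8 CPM (-0.94, -1.06 to -0.82), and in PC20 it was at 118 against 122 CPM. All 11 genes of deoxynucleotide supply passed 1.5-fold, 1 of them counted only through the high-score cells. Among them the ribonucleotide reductase subunits *Rrm1* and *Rrm2* were at 119 against 37.0 CPM (1.69) and 147 against 31.8 CPM (2.21), and thymidine kinase *Tk1* was at 47.7 against 8.63 CPM (2.46). The 10 genes under the detection limit were low in all cells but had log2 ratios between 1.71 (*Orc1*) and 3.55 (*Dna2*). *Dna2*, a nuclease and helicase, was at 12.3 against 1.05 CPM.

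Chromatin and repair genes of S phase followed. All 20 genes of chromatin duplication passed 1.5-fold, where 9.86% of all genes counted did, with a median of 1.54. The lowest of them, at 0.62, was close to the 1.5-fold limit of 0.58. *Uhrf1*, which guides maintenance methylation, was at 106 against 21.2 CPM (2.31), the methyltransferase *Dnmt1* at 117 against 42.1 CPM (1.48), and the ATPases *Hells* and *Atad2* had 2.32 and 2.60. Of 24 repair genes 19 were counted, but 8 of these passed the 5% limit only through the high-score cells, *Exo1* at 15.7 against 1.59 CPM (3.31) among them. The 11 that passed it in the contrast cells alone were all at least 1.5-fold higher, with a median of 1.77, for instance *Brca1* at 36.1 against 7.86 CPM (2.20). In PC20, 59 of 66 replication genes, 18 of 20 chromatin genes and 22 of 24 repair genes were at least 1.5-fold higher, where 6.7% of all genes counted were, with medians of 1.47, 1.26 and 1.33.

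Histone genes of the clusters were examined after some had appeared among the highest genes. Most histone mRNAs of this kind lack a poly(A) tail, so a poly(A)-primed library sees few of them. Of 67 symbols, 17 were counted in PC5. Of these 11 were at least 1.5-fold higher, and *Hist1h2bc*, *Hist3h2a* and *Hist2h3c1* at least 1.5-fold lower, beside 9.86% and 3.08% of all genes counted. Together the 67 gave 809 CPM in high-score cells and 277 CPM in the contrast (1.55, 1.53 to 1.57). *Hist1h2bc*, the most abundant of them over all PC5 cells, was lower, at 62.8 against 101 CPM (-0.68), and in PC20 at 12.1 against 46.8 CPM (-1.95). Counting of near-identical histone genes can split or drop reads, so single histone values are uncertain.

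Cyclins and CDK regulators of G1/S were split. Of 21 genes counted, 11 were at least 1.5-fold higher and 0 lower, beside 9.86% and 3.08% of all genes counted. Over the 20 genes that passed the limit in the contrast cells alone, 10 were higher, beside 9.47% of all such genes. Beside *Ccne2* and *E2f7*, *Ccne1* was at 59.1 against 17.2 CPM (1.78), *Skp2*, which marks p27 for destruction, at 39.7 against 11.04 CPM (1.85), and *E2f1* at 47.8 against 23.8 CPM (1.01). The D-type cyclins, which act earlier in G1, were abundant in all cells and close between the groups. *Ccnd1* was at 1727 against 2016 CPM (-0.22), *Ccnd2* at 1038 against 1218 CPM (-0.23) and *Ccnd3* at 255 against 238 CPM (0.10). In PC20, *Ccnd1* was at 1226 against 1014 CPM (0.27).

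Most genes of growth arrest were within 1.5-fold of the contrast. Of 35 genes of CDK inhibition, p53 response and quiescence, 3 were at least 1.5-fold lower, 3 higher and 29 in between, with a median of -0.09, where 3.08% and 9.86% of all genes counted were lower and higher. *Cdkn1a*, which encodes p21, was at 381 CPM in high-score cells and 396 CPM in the contrast (-0.06, -0.09 to -0.03), and had a UMI in 94.5% and 94.8% of cells. *Cdkn2a* was at 444 against 571 CPM (-0.36). The 3 higher genes were the CDK inhibitors *Cdkn2c*, *Cdkn2d* and *Cdkn1c*, at 33.8 against 15.8 CPM (1.097), 40.4 against 23.0 CPM (0.81) and 16.6 against 9.76 CPM (0.77). The 3 lower genes were *Pik3ip1*, a brake on PI3 kinase, at 18.2 against 29.3 CPM (-0.69), *Gadd45a*, a p53 target, at 8.16 against 13.2 CPM (-0.69), and *Gas6*, a ligand of TAM receptors, at 3.94 against 6.15 CPM (-0.64). With ratios centred on the median gene, 5 of the 35 were lower in place of 3, and 506 of all 10429 genes counted in place of 321.

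The 44 genes of the G2/M list, which act in chromosome condensation and mitosis, were also higher in high-score PC5 cells. Of these 41 were at least 1.5-fold higher, where 9.86% of all genes counted were, with a median of 1.30 beside 0.12. *Top2a*, which untangles replicated DNA, was at 313 against 67.4 CPM (2.21), *Mki67* at 84.0 against 21.4 CPM (1.97) and *Ccna2*, the cyclin of S and G2, at 76.2 against 20.6 CPM (1.89). Of the high-score cells, 307 (30.9%) were also in the top 10% of PC5 cells by the share of UMIs in this list. By list medians, 1.47 for replication and 1.30 for G2/M, the chosen cells were not set apart as G1/S and S phase alone, and they are called by their score.

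The count of G2/M genes was lower with members picked without *Pclaf*. A score of the Mcm genes alone also leaves out *Pcna*, *Dtl* and *Rad51ap1*, and the cause was not tested. With members picked by the 5 Mcm genes alone, 18 of the 44 G2/M genes were at least 1.5-fold higher, and with the score without *Pclaf* 20 were, while the replication list gave 47 of 56 either way. Of all 10429 genes counted, 853 were higher with the Mcm genes alone and 893 without *Pclaf*. Without the 307 cells, 25 G2/M genes and 48 replication genes were higher, beside 964 of all 10429. The fall of the G2/M count is fixed by leaving out cells by that list. *Ube2c* and *Cdc20*, of the anaphase-promoting complex, had log2 ratios of 0.63 and 0.61 by the full score and -0.24 and -0.09 without *Pclaf*. Of the 41 higher G2/M genes these alone changed sign under that score, and *Top2a* and *Mki67* were at 1.37 and 1.11 in place of 2.21 and 1.97.

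In PC20 the G2/M list stood elsewhere. There 5 of 44 genes were at least 1.5-fold higher and 14 at least 1.5-fold lower, where 6.7% of all genes counted were higher and 3.09% lower, and the median was -0.15. *Ccnb1*, the mitotic cyclin, was at 97.6 against 38.6 CPM in PC5 (1.34) and at 38.5 against 68.4 CPM in PC20 (-0.83). Of 474 high-score PC20 cells, 17 (3.59%) were in the top 10% by the G2/M list. *Pclaf* gave 28.3% of their score UMIs. The G2/M list summed to 4263 CPM in the other PC20 cells and 1392 CPM in the other PC5 cells. The difference between the libraries was not tested.

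**Figure D3:**
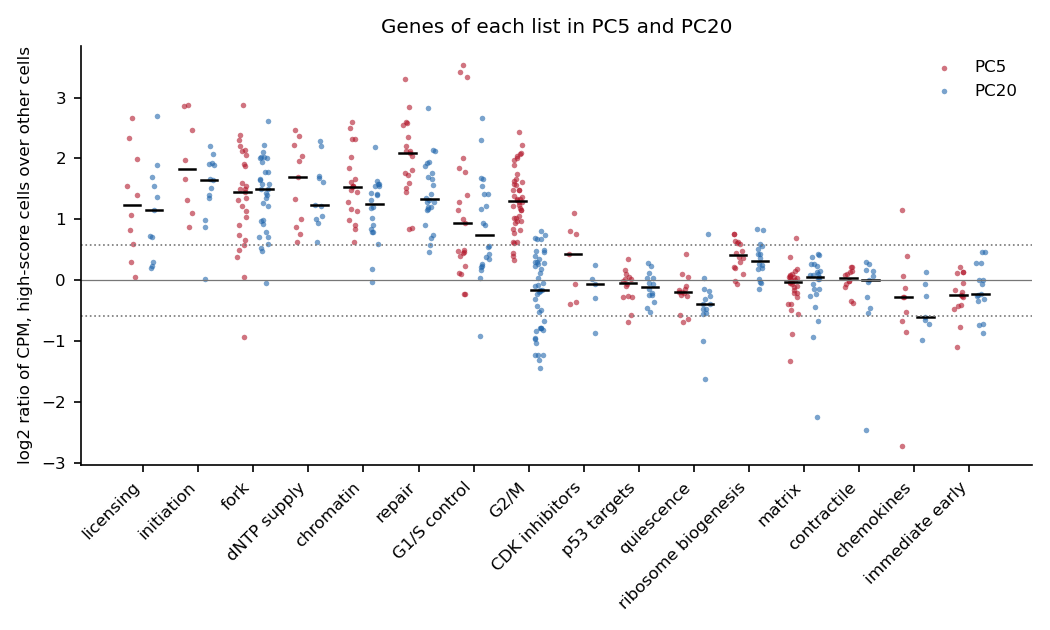
Each point is 1 gene of a list with a UMI in at least 5% of cells (red PC5, blue PC20), at its log2 ratio of CPM, high-score over other cells. Black bars are list medians and dotted lines mark 1.5-fold. The medians of the replication lists lie above 0 in both libraries, and that of the G2/M list is 1.30 in PC5 and -0.15 in PC20.

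High-score PC5 cells were next set beside the 688 other PC5 cells in the top 10% by the G2/M list and the remaining 8267 cells. *Ccne2* was at 49.1 CPM in high-score cells, 2.84 CPM in G2/M-rich cells and 4.79 CPM in the rest. *Cdc6* was at 20.1, 2.31 and 3.28 CPM, and *Dna2* at 12.3, 0.74 and 1.08 CPM. All 3 were at least as low in G2/M-rich cells as in the rest. *Mybl2* had an intermediate value there, 2.79 CPM beside 20.2 and 1.35 CPM. The replication list as a whole summed to 2742, 1794 and 1083 CPM. Genes of the G2/M list chose the G2/M-rich cells, so their values there are no result.

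The high-score cells were not uniform among themselves. They were split in 3 by their share of UMIs in the G2/M list, with 332, 332 and 331 cells and median depths of 25175.5, 27490 and 26534 UMIs. The score was alike in the G2/M-low, G2/M-middle and G2/M-high cells, at 831, 911 and 826 CPM in that order, and so was the replication list, at 2655, 2936 and 2626 CPM. Single genes of the G1/S, repair and licensing lists differed more. *Ung*, the uracil glycosylase, was at 15.5, 8.15 and 1.06 CPM, a log2 ratio of G2/M-high over G2/M-low cells of -3.86 (-5.03 to -2.90). *Ccne2* was at 73.1, 61.3 and 12.5 CPM (-2.54), *Cdt1* at 27.2, 11.2 and 4.97 CPM (-2.45) and *Cdc6* at 31.6, 21.7 and 7.1 CPM (-2.16). These genes of G1 and the start of S phase were lowest in the G2/M-high cells.

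Other S-phase genes did not follow that order. *Rrm2* was at 135, 173 and 133 CPM (-0.02, -0.14 to 0.10) and *Brca1* at 33.2, 41.0 and 34.0 CPM (0.03), both with their highest value in the G2/M-middle cells. *Tk1*, at 28.6, 54.0 and 59.7 CPM (1.06), and *Rrm1*, at 91.2, 127 and 139 CPM (0.61), were highest in the G2/M-high cells. The summed clustered histones were lowest in the G2/M-low cells, at 410, 958 and 1046 CPM. *Hist1h2ap* was at 105, 298 and 280 CPM and *Hist1h1b* at 30.9, 80.5 and 97.3 CPM, while *Hist1h2bc* had the opposite order, at 78.8, 59.8 and 50.3 CPM (-0.65, -0.83 to -0.47). The score genes chose the cells by their sum, so that opposite orders among them are in part fixed by the rule, and their bars are shown as a description. The genes of the G2/M list chose these groups, so their values here are no result.

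**Figure D4:**
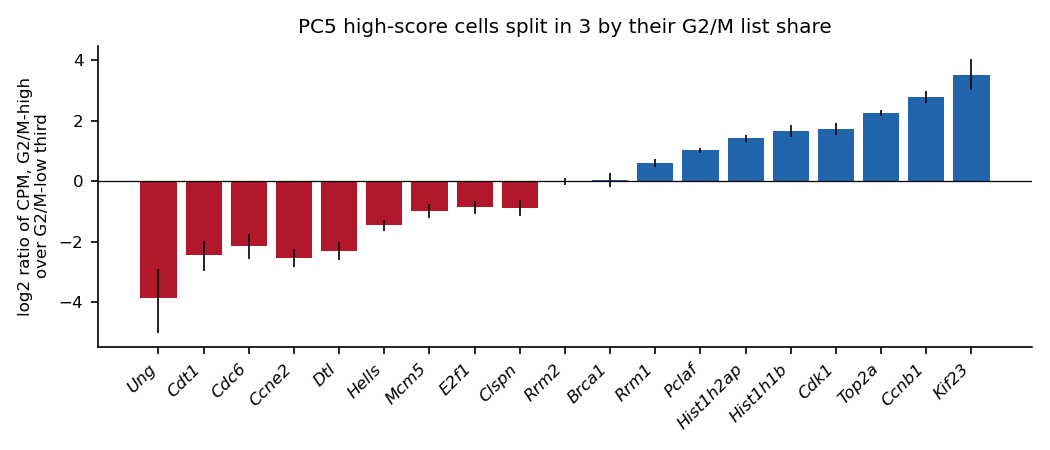
Log2 ratio of CPM in the G2/M-high (331) over the G2/M-low (332) high-score PC5 cells for genes picked after their values were seen, with 95% counting intervals. *Ung* is lowest at -3.86, *Rrm2* and *Brca1* lie at 0, and *Hist1h2ap*, at 1.42, and the G2/M genes at the right, which chose the groups, are above 0. Red and blue mark the sign only.

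The lowest gene at 20 CPM or more in the contrast was *Trf* (chr9:103204001-103230444, minus strand), which encodes transferrin, at 9.26 against 39.4 CPM (-2.09, -2.28 to -1.90). *Aldh1a2*, a retinoic acid synthase, was at 18.6 against 55.7 CPM (-1.58), *Selenop* (chr15:3268547-3280508, plus strand), a selenium carrier, at 101 against 297 CPM (-1.55), and *Igfbp3* (chr11:7206086-7213923, minus strand), an insulin-like growth factor binding protein, at 72.1 against 210 CPM (-1.54). Also among the 15 lowest were *Plxdc2*, the vessel factor *Angpt2*, *Cox6b2*, *Slc7a2*, the proteoglycan *Dcn*, *Lbp*, *Ifitm1*, *Dcxr*, *Serpine2*, *Dmpk* and *Col18a1*, with log2 ratios between -1.57 and -1.16. In G2/M-rich cells *Selenop* was at 125 CPM, *Igfbp3* at 79.7 CPM and *Dcn* at 22.0 CPM, near the 101, 72.1 and 21.9 CPM of high-score cells, and in the rest they were at 315, 224 and 58.6 CPM.

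In PC20, where 3.09% of all genes counted were at least 1.5-fold lower, 10 of the 15 genes were counted and 4 of these were lower, namely *Selenop*, *Lbp*, *Cox6b2* and *Dcxr*. *Selenop* itself was at 0.74 against 4.67 CPM there. *Igfbp3* was at 50.4 against 37.2 CPM (0.44) and *Aldh1a2* at 21.3 against 16.9 CPM (0.33). Of the 207 genes lower in PC5 and counted in PC20, 69 (33.3%) were also lower, which is 28% of the 246 lower in PC20 and counted in PC5, and 2 were higher.

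Across the culture the levels followed the score in steps. Kept PC5 cells were put in 10 equal bands by score, with the high-score cells as band 1. The last 2 bands and part of the one before held only cells without a score UMI, in file order. *Ccne2* went from 49.1 CPM in band 1 to 15.6 CPM in band 2 and 2.11 CPM in band 6, and *E2f7* from 27.8 to 8.35 and 0.87 CPM. The clustered histones went from 809 to 416 CPM between the first 2 bands and stayed between 226 and 321 CPM from band 3 on. The G2/M list fell off later, from 3295 CPM in band 1 to 3115 CPM in band 2, 2542 CPM in band 3 and 398 CPM in band 10. *Selenop* was at 101 CPM in band 1, 239 CPM in band 5 and 494 CPM in band 10, and *Trf* at 9.26, 23.2 and 72.6 CPM. The ribosome biogenesis genes, which build the nucleolar machinery, went from 3535 to 2310 CPM. Median depth went from 26350 UMIs in band 1 to 17245 UMIs in band 10, and its part in these values was not tested.

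**Figure D5:**
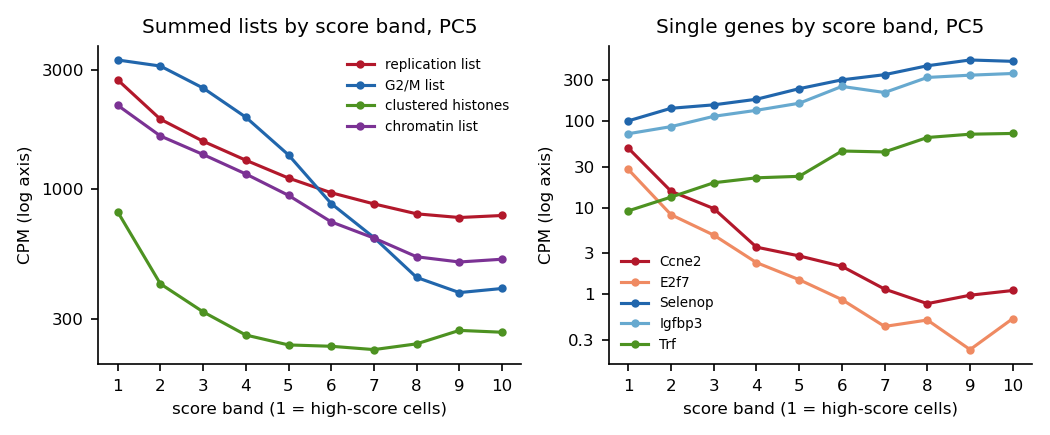
CPM (log axes) of 4 summed lists and 5 genes in 10 bands of PC5 cells, band 1 holding the high-score cells and bands 9 and 10 only cells without a score UMI. *Ccne2* and *E2f7* drop most between bands 1 and 2, while the G2/M list stays near its highest value through band 2.

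Lists of growth metabolism and pericyte functions are read beside the shares of all genes counted, 9.86% higher and 3.08% lower. Of 16 ribosome biogenesis genes, 6 were at least 1.5-fold higher, among them *Nop56* at 76.5 against 45.1 CPM (0.76) and *Ncl*, nucleolin, at 710 against 466 CPM (0.61). Of 15 genes of purine, pyrimidine and one-carbon synthesis, 11 were, with a median of 0.72. Contractile genes gave 0 of 12 past 1.5-fold in either direction, and matrix genes 1 higher (*Fbn2*, 0.69) and 2 lower (*Thbs2*, -0.89, and *Dcn*) of 29. Of 10 chemokine genes counted, 3 were lower, *Ccl2* at 199 against 316 CPM (-0.66), *Ccl7* at 93.3 against 168 CPM (-0.85) and *Ccl8* at 2.19 against 14.4 CPM (-2.72), the lowest log2 ratio of the 10429 genes counted. In G2/M-rich cells *Ccl2* was at 206 CPM and *Ccl7* at 72.1 CPM. The chemokine list summed to 408 CPM in high-score cells, 380 CPM in G2/M-rich cells and 623 CPM in the rest. *Il1rl1*, the receptor of interleukin 33 placed on that list, was higher, at 14.1 against 6.33 CPM (1.15). Of 15 immediate early genes, *Fos* was lower, at 34.3 against 58.2 CPM (-0.76), and so was *Egr2*, at 1.52 against 3.27 CPM (-1.103).

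The labelled cell type was checked on 8 pericyte markers. *Pdgfrb*, the receptor that holds PCs on vessels, was at 40.9 CPM in high-score cells and 45.1 CPM in the contrast (-0.14), the NG2 gene *Cspg4* at 8.91 against 5.11 CPM (0.80) and *Notch3* at 7.19 against 11.6 CPM (-0.70). The other 5 were under the detection limit in PC5, with *Rgs5* at 0.9 against 1.94 CPM, 1 *Kcnj8* UMI in all high-score cells and 0 UMIs of *Abcc9*, which at 3 UMIs allows up to 0.117 CPM. The list summed to 61.6 against 67.8 CPM. Markers of other cell types were unequal. At or near 0 were *Ptprc* with 0, *Aif1* with 1, *Pecam1* with 13 and *Cldn5* with 3 UMIs among the 25602993 of the high-score cells. The 5 endothelial markers summed to 40.8 against 29.8 CPM, with the receptor gene *Flt1* at 22.5 against 17.0 CPM and *Tie1* at 0 UMIs in high-score cells. The fibroblast list summed to 1317 against 1300 CPM, of which *Col3a1* gave 1218 and 1151 CPM and *Pdgfra* 74.9 and 90.4 CPM, while *Dcn*, at 21.9 against 55.1 CPM, was at least 1.5-fold lower. The astrocyte list summed to 177 against 148 CPM, led by *Slc4a4*, with *Aldh1l1* lower, at 4.26 against 7.75 CPM (-0.86), and *Gfap* and *Aqp4* at 0 UMIs in high-score cells. The neuron list summed to 59.9 against 52.0 CPM, led by *Tubb3*, the smooth muscle list to 234 against 290 CPM, led by *Tagln*, the oligodendrocyte list to 5.66 against 4.49 CPM and the microglia and leukocyte list to 4.69 against 4.01 CPM, led by *Cx3cr1*. The part of other cell types in the results was not tested.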

How the data were processed

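The deposited values are UMI counts per gene and cell barcode, which the authors made from 10x 3′ libraries with Cell Ranger (version 5.0 per the labels) on mm10. The study's cell filter was applied: over 1000 genes, and a mitochondrial share of UMIs below 20%. It left out 679 of 10629 PC5 barcodes. Depth after the filter was 223054273 UMIs for PC5, and for PC20 191122251. Counts were summed over cells and compared as CPM, with exact binomial intervals at the 95% level that cover counting error only, and no test was made because each passage has 1 library. Symbols and positions were matched to GENCODE M21.

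The members, the gene lists and the settings were chosen with earlier results of these data known, and support nothing by themselves. Named genes were the 15 with the highest and the 15 with the lowest log2 ratio among genes with a UMI in at least 5% of kept cells and at least 20 CPM in the higher group, without score genes, mitochondrial genes, pseudogenes and unnamed gene models. Other genes are members of the lists, those shown by G2/M share chosen after their values were seen. Doublets were not removed: Scrublet (scanpy) marked 1 of 9950 PC5 cells. This was not taken as an estimate of doublets, and their share is unknown. The computation was tested on simulated counts. Alternatives were other cell filters, member shares, score genes, depths, weights, library sizes, gene filters and folds.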

Additional observations from a re-analysis of the deposited data

Results flagged for a closer look

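In the list of G2/M genes 12 differed in direction between the libraries, with high-score cells at least 1.5-fold higher in PC5 and at least 1.5-fold lower in PC20. Over all genes, this held for 19 of the 984 that were higher in PC5 and counted in PC20. The difference was not tested, since each passage has 1 library. The log2 ratios in PC5 and PC20 were 1.49 and -0.66 for *Aurka*, 1.34 and -0.83 for *Ccnb1*, 0.61 and -1.43 for *Cdc20*, and 0.94 and -0.79 for *Cdc25c*. They were 1.16 and -0.82 for *Cenpe*, 0.84 and -0.97 for *Cenpf*, 1.02 and -0.79 for *Hmmr*, and 0.63 and -0.94 for *Kif20a*. They were 1.29 and -1.02 for *Kif2c*, 1.49 and -0.79 for *Nusap1*, 1.23 and -1.23 for *Plk1*, and 0.63 and -1.23 for *Ube2c*. With the score without *Pclaf*, *Cdc20* and *Ube2c* were at -0.095 and -0.24 in PC5. The other 10 genes kept their sign there, from 0.048 (*Kif20a*) to 0.68 (*Aurka*), with *Aurka* alone still at least 1.5-fold higher. The number of G2/M genes at least 1.5-fold higher was 20 in place of 41, and that of all 10429 genes counted 893 in place of 1028.

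The 679 PC5 barcodes left out by the cell filter, with a median of 1106 UMIs, held 231 UMIs of the score genes among 924207, or 250 CPM (Poisson 95% interval 219 to 284). This is above the 140 CPM of the contrast cells and below the 857 CPM of the high-score cells. They entered no comparison.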

How the results depend on the processing

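The number of replication genes at least 1.5-fold higher, 49 of 56, stayed within 1.5 times of 49 under every alternative. It ran from 36 of 44 (thinned cells) to 58 of 65 (gene filter of 2% of cells), so the number counted changed as well. Of all genes, 765 of 8949 and 1237 of 11689 were higher in these 2 settings, beside 1028 of 10429. The 30 named genes kept their direction and 1.5-fold in all 15 alternatives run on them. They were picked for their extreme ratios in the same library, so this is in part fixed in advance. The count of G2/M genes (41) moved to 18 with members by the Mcm genes only, and, in alternatives chosen after seeing the data, to 20 for the score without *Pclaf* and 25 without the cells in the top 10% by the G2/M list. Over all 10429 genes counted, 853, 893 and 964 were higher in that order, beside 1028. In these 3 alternatives the log2 ratio of *Cdc20* reversed to -0.082, -0.095 and -0.16, and that of *Ube2c* to -0.30, -0.24 and -0.12. The last of the 3 leaves out cells by the list that holds these genes, which fixes the direction of its moves. For the others the cause was not tested. At 2-fold, the counts were 406 higher, 91 lower and 0 growth arrest genes lower. The count of lower genes (321) moved to 526 against cells without *Mki67* or *Top2a* UMIs, 506 with centred ratios, and 527 and 210 with gene filters of 2% and 10% of cells. Growth arrest genes lower (3) moved to 5 with stricter cell filters, contrast cells without *Mki67* or *Top2a* UMIs, centred ratios, means over cells, totals without mitochondrial and ribosomal protein genes, and without the 2% of cells with the most UMIs. Over all genes counted, 340, 526, 506, 375, 414 and 336 were lower in that order, beside 321. No paired analysis was possible because each passage has 1 library. Counts of a few UMIs per cell limit the score of shallow cells.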
